A study of Mus musculus with 35 samples.

Results

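This is the RNA-seq comparison of the DNA-binding mutant of the leukemia fusion protein NUP98-HOXA9, labelled G-NHX9-DDNA, with the empty vector, labelled Empty. Its members were chosen by label, and they are 10 of the 35 libraries of the series, 5 with the mutant and 5 with the vector. All libraries came from mouse lin− HSPCs, which are bone marrow cells depleted of mature blood lineages, taken from C57Bl/6 mice of both sexes, transduced with lentivirus and sorted by fluorescence. The sorted cells then grew for 1 week in methylcellulose, a semi-solid medium that held myeloid and erythroid growth factors, to which GM-CSF was added at 10 ng/mL. The labels give an age of 8 weeks for the mice of the 5 G-NHX9-DDNA libraries and of Empty libraries 1 to 3, 9 weeks for Empty library 4 and 10 weeks for Empty library 5. The mutant carries an mEGFP tag, the full NUP98 part and a HOXA9 homeodomain in which residues that contact DNA were changed to weaken binding, and its cells were sorted for mEGFP and for the mCherry of the vector. Empty cells were sorted for mCherry alone, and their vector encodes a bacterial acetyltransferase in place of the fusion. The control therefore lacked the tag as well as the fusion, and effects of the tag and of the fusion cannot be told apart. The study's methods describe replicate transductions of cells isolated in parallel, but fewer replicates than there are libraries here, and no label ties a library to a culture or a mouse, so p-values measure only the spread between these libraries. G-NHX9, the fusion with an intact homeodomain, and G-NHX9-midi-21FGAA, a shortened fusion whose FG motifs were replaced, served as further references with 5 libraries each. Their labels give an age of 11 weeks for G-NHX9 library 1 and of 8 weeks for every other library of these references.

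NUP98 is a nuclear pore protein whose amino-terminal part holds many phenylalanine-glycine (FG) motifs, which bind transport receptors and chromatin regulators. In the fusion it is joined to the homeodomain of HOXA9, a transcription factor of stem and progenitor cells that normally falls silent as blood cells mature. The intact fusion keeps Hox cluster genes and the cofactor gene *Meis1* active and blocks differentiation. In bone marrow, granulocyte precursors make primary granule proteases at an early stage and leave the cell cycle as they mature, while macrophages build up lysosomal and antigen-presenting proteins.

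Total counts were 31559914 to 48480625 per library, and a count of 3, which a count of 0 allows, corresponds to 0.0615 to 0.0996 CPM (reads of a gene relative to the library total, scaled by TMM). The floors cover counting error only, since reads without molecular identifiers are not independent molecules. Libraries 4 and 5 stood apart from libraries 1 to 3 in both conditions: *Xist*, the transcript of the inactive X chromosome, was at 815 to 913 CPM in the former and at 310 to 582 CPM in the latter. Library 1 stood apart in both conditions in the summed level of 15 immediate early genes, which respond within minutes to handling (1773 CPM against 829 to 877 CPM in the other G-NHX9-DDNA libraries, and 2518 CPM against 1022 to 1181 CPM in the other Empty libraries). By their markers, the cultures of both conditions were myeloid and no longer mainly stem cells: *Lyz2*, the lysozyme of macrophages and granulocytes, was at 13149.8 CPM or more in every library. Of 20 lymphoid markers, 13 were too low to be tested, *Cd3e* among them, and of 15 stromal and endothelial markers 6 were, although none of either list was at 0 in all 10 libraries.

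Between G-NHX9-DDNA and Empty, 2952 of 17166 tested genes differed at an adjusted p under 0.05, which is 17.2%. Of these, 1691 (9.85%) were higher and 1261 (7.35%) lower with the mutant. Only 6 genes (5 higher, 1 lower) passed a test for an absolute log2 fold change over 1. Without overlap between the 5 libraries and the 5, 999 genes (5.82%) were higher and 1083 (6.31%) lower. The balance of the directions depended on the scaling, because TMM factors were 0.995 to 1.03 with the mutant and 0.899 to 0.955 with the vector. Raw library sizes moved the median log2 fold change of all genes from -0.01 to 0.12, and 82.5% of the calls were then higher, against 57.3% with TMM, so that a gene is here higher or lower relative to the bulk of all genes. The count of calls fell to 1918 without G-NHX9-DDNA library 3, and it was 2000 to 3314 without any other library. A fit to libraries 1 to 3 called 3849 genes and one to libraries 4 and 5 called 13, and of 2938 genes called in the full comparison and present in both fits 2937 had the same sign in both. Those genes were called from the same libraries, so their shared sign follows largely from that choice and is no replication. The plot of all tested genes shows the size of the differences by level.

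**Figure D1:**
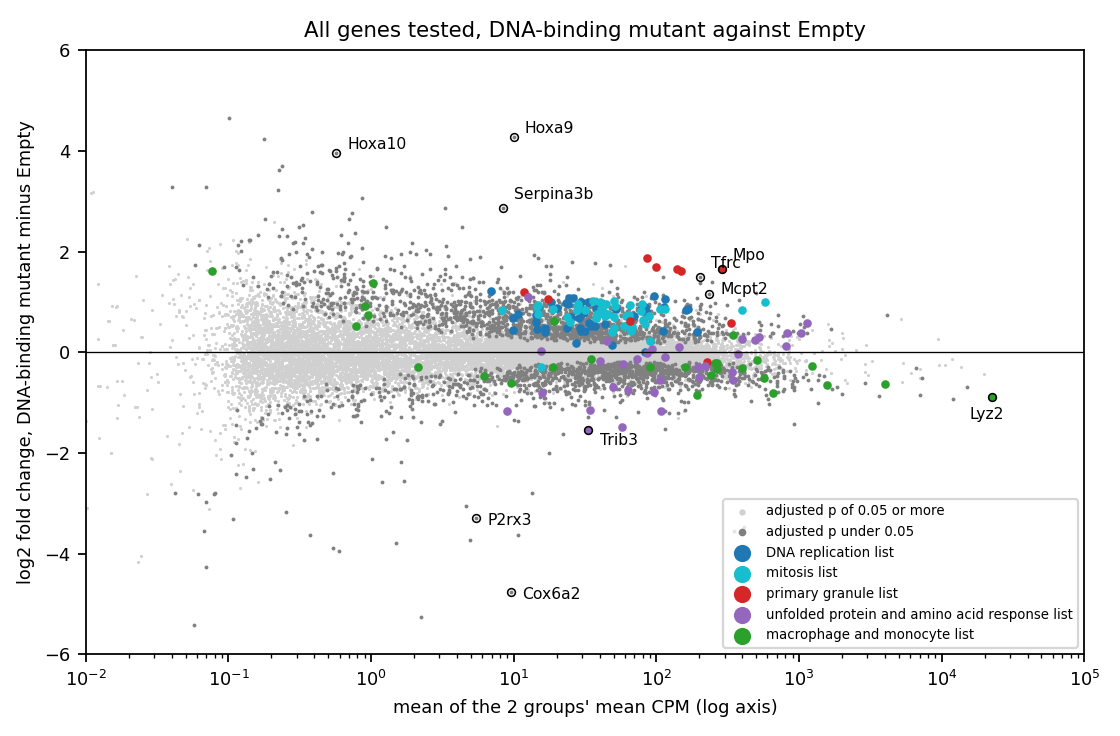
Each point is 1 of 17166 tested genes, with the mean level of the G-NHX9-DDNA and Empty groups in CPM on a log axis and the log2 fold change (mutant minus Empty) on the vertical axis; dark points passed an adjusted p of 0.05 and coloured points are members of 5 gene lists. *Hoxa9* lies at 4.27 and *Cox6a2* at -4.76, and most coloured points of the replication, mitosis and primary granule lists lie above 0.

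The *Hoxa9* signal was the largest rise among called genes averaging 5 CPM or more, with a symbol that is no predicted gene, and no overlap between the groups. *Hoxa9* (chromosome 6, 52223100 to 52231089, minus strand, GRCm38) stood at 17.3, 20.3, 17.1, 16.9 and 23.0 CPM in G-NHX9-DDNA libraries 1 to 5 and at 1.08, 1.26, 0.693, 0.830 and 1.01 CPM in Empty libraries 1 to 5. All 5 mutant libraries were thus far above all Empty libraries (log2 fold change 4.27, SE 0.38, adjusted p = 1.7e-08). The construct itself carries the HOXA9 homeodomain, and how much of this signal was its own RNA counted on the mouse gene was not tested. *Hoxa10*, the neighbouring gene (52231197 to 52240854) whose exons do not overlap those of *Hoxa9*, had 68, 33, 52, 38 and 55 counts with the mutant and 3, 8, 0, 0 and 2 counts with the vector, without overlap (log2 fold change 3.95, SE 0.52, adjusted p = 5.3e-05). Against G-NHX9, both remained lower with the mutant, *Hoxa9* (-2.35 on the log2 scale, SE 0.32, adjusted p = 1.3e-06) and *Hoxa10* (-1.97 on the log2 scale, SE 0.37, adjusted p = 0.00017), where G-NHX9 libraries averaged 96.6 ± 14.4 CPM and 4.24 ± 0.845 CPM (SD, n = 5).

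Among the 21 Hox cluster genes tested, 3 (14.3%) were called higher and 2 (9.52%) lower, against 9.85% and 7.35% of all genes. The median log2 fold change was 0.25, against -0.01 for all genes. In libraries 1 to 3 alone the median was -0.09. The other calls rested on few reads. *Hoxb9* had 3 to 6 counts per mutant library and 0 to 2 per Empty library, and its mutant mean was 1.14-fold a floor of 3 counts per Empty library. *Hoxb8* had at most 2 counts per mutant library and 0 to 6 per Empty library, and its Empty mean was 1.14-fold the same floor for the mutant libraries. Both ratios take a mean of counts near the floor as exact, so neither is a minimum fold. *Hoxb3* was at 0.393, 0.468, 0.328, 0.238 and 0.381 CPM with the mutant and 0.240, 0.413, 0.670, 0.730 and 1.04 CPM with the vector (log2 fold change -0.75, SE 0.25, adjusted p = 0.035), and its groups overlapped. Single libraries decided these small calls: *Hoxb9* lost its call without Empty library 1, 3 or 5 or mutant library 1 or 3, *Hoxb8* without Empty library 2 or mutant library 2 or 3, and *Hoxb3* without Empty library 3, 4 or 5 or mutant library 1, 3 or 4. None of *Hoxa4*, *Hoxa5*, *Hoxa7* or *Hoxb4* passed, and *Hoxa5* had 5 to 23 counts with the mutant and 4 to 8 with the vector.

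The TALE homeobox genes encode partners of HOX proteins on DNA. With the mutant, 3 of 10 (30%) were higher and 2 (20%) lower, against 9.85% and 7.35% of all genes. *Meis1*, the partner most tied to HOXA9 in leukemia, stood at 18.3, 21.2, 25.2, 30.0 and 26.7 CPM with the mutant and 13.4, 15.3, 15.9, 14.5 and 9.30 CPM with the vector. The groups did not overlap (log2 fold change 0.83, SE 0.18, adjusted p = 0.0021). *Tgif2*, a repressor of the same class, rose as well (log2 fold change 1.17, SE 0.30, adjusted p = 0.0065), at 1.50 to 1.92 CPM against 0.531 to 1.01 CPM. *Pbx2* (-0.36) and *Tgif1* (-0.35) were the lower ones, a count that went from 2 to 0 without Empty library 2 or mutant library 2 or 3 and to 1 without Empty library 3, 4 or 5 or mutant library 1 or 4. *Nup98*, the mouse gene of the other fusion partner, was at 204, 180.1, 189.5, 232 and 229.7 CPM with the mutant and 121, 122, 119, 142 and 144 CPM with the vector, higher in all 5 mutant libraries than in any Empty library (log2 fold change 0.68, SE 0.12, adjusted p = 0.00052). The part of construct RNA in this difference was not tested either.

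**Figure D2:**
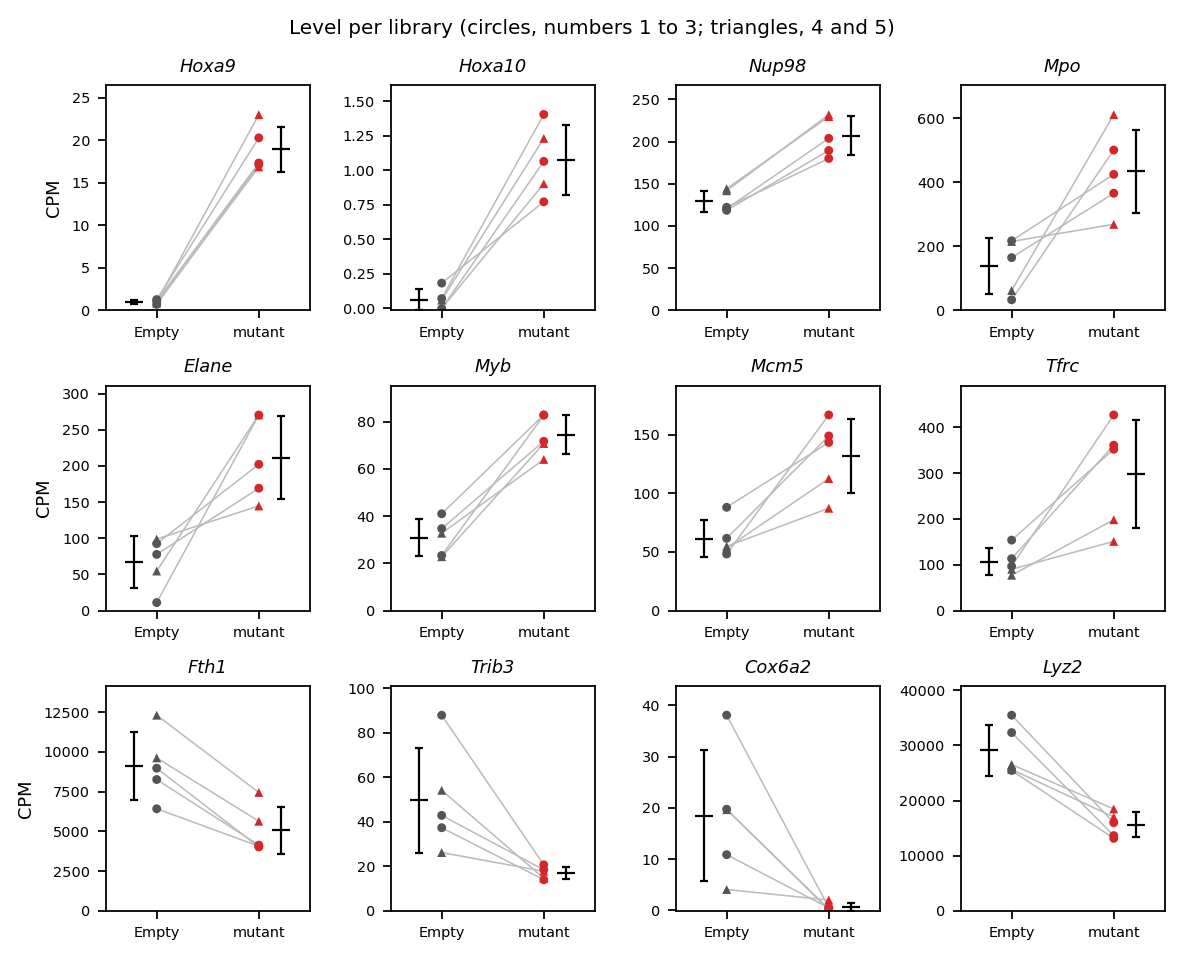
CPM of 12 genes in the 5 Empty (grey) and 5 G-NHX9-DDNA (red) libraries, with lines joining libraries of the same number, circles for numbers 1 to 3, triangles for 4 and 5, and bars for the mean and SD. The groups overlapped by 1 library each for *Mcm5*, *Tfrc* and *Fth1* and did not overlap for the other 9 genes.

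The genes of primary granules, the protease stores that granulocyte precursors fill at the promyelocyte stage, stood out in size. Of 10 tested members, 9 (90%) were called higher and none lower, against 9.85% and 7.35% of all genes. The median log2 fold change was 1.40. *Mpo*, the myeloperoxidase, was at 424, 500.3, 366, 268 and 611 CPM in mutant libraries 1 to 5 and at 217, 32.8, 164, 215 and 61.9 CPM in Empty libraries 1 to 5 (log2 fold change 1.65, SE 0.38, adjusted p = 0.0034). *Elane*, the neutrophil elastase, was at 202, 270.4, 169, 145 and 271 CPM and 92.6, 11.0, 77.7, 98.9 and 54.7 CPM (log2 fold change 1.66, SE 0.43, adjusted p = 0.0083). Neither overlapped between the groups, although Empty libraries 2 and 5 were far below the other 3. *Ms4a3*, a membrane protein of granulocyte-monocyte precursors, rose most (log2 fold change 1.87, SE 0.33, adjusted p = 0.00054), and *Prtn3*, the proteinase 3 gene, was next (log2 fold change 1.70, SE 0.38, adjusted p = 0.003). The called members with smaller changes were *Ctsg* (1.61), *Prss57* (1.19), *Nkg7* (1.06), *Cst7* (0.62) and *Serpinb1a* (0.58), of which *Cst7* lost its call without mutant library 2. The summed level of the list was 1360 to 2335 CPM with the mutant and 659 to 1274 CPM with the vector. In bulk RNA, more cells of a type and more RNA per cell cannot be told apart, here and in the lists that follow.

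Later neutrophil genes split. Of 19 tested, 4 (21.1%) were higher and 3 (15.8%) lower, against 9.85% and 7.35% of all genes. The median was -0.01 (0.11 with raw library sizes and 0.21 in libraries 1 to 3). *Mmp8*, the collagenase of secondary granules, was at 960.4, 768, 784, 900.2 and 1062 CPM with the mutant and 1725, 1877, 1863, 1739.8 and 1803 CPM with the vector (log2 fold change -1.01, SE 0.23, adjusted p = 0.0028), and *Retnlg*, a secreted protein of mature neutrophils, fell too (log2 fold change -1.34, SE 0.38, adjusted p = 0.015). Both had lower values in all 5 mutant libraries than in any Empty library. *Cd177*, a surface protein of neutrophils, rose (0.92), as did *Ltf*, *S100a8* and *Itgb2l*, the last 3 at 0.72 to 0.78. In leave-one-out fits only 1 gene of the list was still called higher without Empty library 2 or mutant library 1, 2 or 3, and 2 without Empty library 3 or 5. A pair of transcription factors of granulocyte precursors rose, *Gfi1* at 33.7, 43.7, 30.2, 23.6 and 40.4 CPM against 23.0, 10.8, 21.9, 23.1 and 11.4 CPM (log2 fold change 0.93, SE 0.25, adjusted p = 0.011) and *Cebpe* at 67.3, 86.4, 66.9, 38.9 and 48.5 CPM against 42.0, 26.9, 37.5, 30.6 and 28.9 CPM (log2 fold change 0.89, SE 0.21, adjusted p = 0.0045). They were the 2 higher members (8.33%) of 24 myeloid transcription factors, of which 3 (12.5%) were lower: *Irf8* (-0.52), which drives monocyte and dendritic cell fates, *Klf4* (-0.85) and *Bhlhe41* (-0.73). Blocking on the replicate number made 10 of the 24 lower. Without 1 library the count of lower members was 1 (Empty 4, mutant 2 or 3) to 5 (Empty 1, mutant 4 or 5).

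Few macrophage and monocyte genes passed singly, and their summed level was lower, mostly through *Lyz2*. Of 26 tested, 5 (19.2%) fell and 1 (3.85%) rose (8 and 1 when blocked on the replicate number), against 7.35% and 9.85% of all genes. The median log2 fold change was -0.29. *Lyz2*, at 13149.8, 13652, 15994, 17003 and 18476 CPM with the mutant and 25449, 32327, 35477, 25650.0 and 26536 CPM with the vector, was lower in all 5 mutant libraries (log2 fold change -0.89, SE 0.24, adjusted p = 0.0093). The other fallers were *Trem2* (-0.86), a lipid receptor, *Cd68* (-0.80), a lysosomal glycoprotein, *Mpeg1* (-0.66), a perforin of phagocytes, and *Adgre1* (-0.51), which encodes F4/80. *Cx3cr1*, the fractalkine receptor, rose at a low level (log2 fold change 1.38, SE 0.38, adjusted p = 0.012), from 0.398 to 1.01 CPM with the vector to 1.03 to 2.04 CPM with the mutant. The list summed to 21713 to 27881 CPM with the mutant and 36859 to 50851 CPM with the vector, without overlap. *Lyz2*, which granulocytes also express, made up 78.6% of the difference in mean sums. Without it the sums were 8178 to 9465 CPM and 11209 to 15374 CPM, again without overlap.

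MHC class II genes, by which macrophages and dendritic cells present antigen, were lower in 4 of 22 tested members of their list (18.2%). A single member (4.55%) was higher, and the shares of all genes were 7.35% lower and 9.85% higher. The 4 were *H2-Aa*, *H2-Ab1*, *H2-Eb1* and *H2-Ob*, at -0.47 to -0.58 on the log2 scale. Leaving out 1 library changed this count to 0 (Empty 3 or mutant 1), 1 (mutant 2) or 2 (Empty 1 or mutant 3). *H2-Ob* was at 6.92, 6.51, 6.49, 8.89 and 13.3 CPM with the mutant and 11.5, 9.96, 15.7, 14.3 and 11.4 CPM with the vector, with overlap. The higher member was *Ccl17*, a chemokine that dendritic cells make to draw T cells, at 12.8, 35.4, 25.0, 29.6 and 13.1 CPM against 8.73, 6.20, 3.91, 3.15 and 9.73 CPM (log2 fold change 1.87, SE 0.43, adjusted p = 0.0037). Of 27 growth factor receptors and feedback regulators, 2 (7.41%) were higher and 6 (22.2%) lower, against 9.85% and 7.35% of all genes. The lower ones included the receptor chains for GM-CSF, *Csf2ra* (-0.54), interleukin 3, *Il3ra* (-0.54), and interleukin 6, *Il6ra* (-0.60). The higher ones were *Il5ra*, the interleukin 5 receptor of eosinophils (log2 fold change 1.30, SE 0.33, adjusted p = 0.0074), and *Kit*, the stem cell factor receptor (log2 fold change 0.74, SE 0.25, adjusted p = 0.04). *Kit* lost its call without Empty library 2, 3, 4 or 5 or mutant library 2, 3 or 4, and stood at 112 to 200 CPM against 72.3 to 95.5 CPM with no overlap.

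The broadest difference in the list counts lay in genes of cell division. Of 47 DNA replication genes, 43 (91.5%) were higher with the mutant and none lower, with a median log2 fold change of 0.75. Of 44 mitosis genes, 40 (90.9%) were higher and 1 (2.27%) lower, with a median of 0.80. The shares of all genes were 9.85% higher and 7.35% lower. *Mcm5*, a subunit of the MCM helicase that unwinds DNA at origins, was at 144, 167, 149, 113 and 87.3 CPM in mutant libraries 1 to 5 and at 88.1, 48.3, 61.7, 53.2 and 54.8 CPM in Empty libraries 1 to 5 (log2 fold change 1.11, SE 0.18, adjusted p = 0.00042). The groups nearly touched, at 87.3 and 88.1 CPM, and overlapped for 1 library of each. *Orc1*, the origin recognition subunit, had the largest rise of the list, at 9.76, 11.0, 11.3, 8.54 and 8.09 CPM against 5.35, 3.44, 4.14, 3.49 and 4.41 CPM (log2 fold change 1.22, SE 0.22, adjusted p = 0.00053). The other members of the helicase (*Mcm2*, *Mcm3*, *Mcm4*, *Mcm6* and *Mcm7*) rose by 0.82 to 0.91, and *Cdc6*, the loader of the helicase, by 1.07. *Rrm2* (1.05) and *Tyms* (0.99), which supply deoxynucleotides, and *Pole* (1.00), the leading strand polymerase, rose as well. *Pcna*, the sliding clamp, rose less (0.40), and its call was lost without Empty library 4 or mutant library 2.

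Mitosis genes followed the same direction. *Bub1*, a spindle checkpoint kinase, was at 85.8, 82.7, 74.9, 50.8 and 44.3 CPM with the mutant and 53.3, 20.6, 32.5, 25.6 and 34.4 CPM with the vector (log2 fold change 1.02, SE 0.22, adjusted p = 0.0018), with mutant libraries 4 and 5 below the highest Empty library. *Kif4*, a chromosome motor, rose similarly (log2 fold change 1.02, SE 0.20, adjusted p = 0.001). *Mki67*, the usual marker of cycling cells (1.00), *Ccnb1* (0.97), *Aurkb* (0.76) and *Top2a* (0.84) were also called. *Pttg1*, the securin, was the 1 lower member (-0.30), and no fit without 1 of the libraries kept that call except those without Empty library 4 or 5. Of 25 cell cycle regulators, 6 (24%) rose and none fell, against 9.85% and 7.35% of all genes. Blocking on the replicate number made 11 of the 25 higher. The 6 included the S phase cyclin *Ccne2*, at 47.6, 56.0, 48.1, 29.2 and 23.9 CPM against 30.5, 14.9, 21.1, 14.6 and 20.3 CPM (log2 fold change 1.01, SE 0.21, adjusted p = 0.0019), and *E2f8* (log2 fold change 0.95, SE 0.30, adjusted p = 0.027), a repressor of the E2F family, whose call was lost without Empty library 1, 2 or 3 or mutant library 4. The summed replication list was 2274 to 3232 CPM with the mutant and 1425 to 2146 CPM with the vector, and the mitosis list 3205 to 4434 CPM and 1631 to 3219 CPM.

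The E2F factors turn on replication genes through short elements ahead of their start, so the 250 bases before each start were searched for TTTCCCGC and TTTGGCGC on both strands in RefSeq promoters (GRCm38.p6). Of 37 replication genes with a promoter in the table, 6 (16.2%) held either run of letters, against 4.63% of the genes called higher, 2.8% of the tested genes, 1.51% of 27025 genes with a promoter and none of 37 mitosis genes. A match describes the letters and not a bound site. The promoters of the 3 members with a match and the largest rises are shown with the match in capitals, on the gene's strand, ending at the base before the start.
*Mcm5*, chr8:75109259-75109508, plus strand: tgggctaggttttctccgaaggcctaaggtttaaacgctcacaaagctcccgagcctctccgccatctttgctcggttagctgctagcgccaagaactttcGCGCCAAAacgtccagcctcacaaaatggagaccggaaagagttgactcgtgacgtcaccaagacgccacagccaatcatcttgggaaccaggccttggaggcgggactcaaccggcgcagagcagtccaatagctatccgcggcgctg
*Cdc6*, chr11:98907901-98908150, plus strand: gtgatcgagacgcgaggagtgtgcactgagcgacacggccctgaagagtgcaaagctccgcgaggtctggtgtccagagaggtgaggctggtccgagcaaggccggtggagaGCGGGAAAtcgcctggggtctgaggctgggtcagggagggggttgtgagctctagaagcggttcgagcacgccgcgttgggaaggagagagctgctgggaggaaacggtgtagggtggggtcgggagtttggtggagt
*Mcm7*, chr5:138171884-138172133, minus strand: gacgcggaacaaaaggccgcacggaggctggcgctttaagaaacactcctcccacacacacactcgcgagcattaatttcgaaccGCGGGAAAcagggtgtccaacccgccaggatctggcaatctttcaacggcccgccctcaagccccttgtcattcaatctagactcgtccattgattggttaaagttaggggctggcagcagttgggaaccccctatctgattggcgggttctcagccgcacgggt
In these 3 promoters the match lay on the strand opposite to the gene, and its first base was 149, 138 and 165 bases before the start.

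Genes of cell growth moved with those of division. Of 47 ribosome assembly genes, 28 (59.6%) were higher and none lower, against 9.85% and 7.35% of all genes. The median was 0.47, and only 9 were higher when the Empty libraries labelled 9 and 10 weeks were left out. *Dkc1*, the enzyme that modifies ribosomal RNA and a part of telomerase, was at 46.2, 48.6, 49.0, 31.3 and 22.4 CPM with the mutant and 23.7, 15.8, 16.3, 13.0 and 14.2 CPM with the vector, with mutant library 5 below Empty library 1 (log2 fold change 1.25, SE 0.19, adjusted p = 0.00033). *Nop58*, of the same kind of particle, rose too (log2 fold change 0.93, SE 0.24, adjusted p = 0.0086), as did *Polr1b*, of the polymerase for ribosomal RNA (0.92). The cytosolic ribosomal proteins themselves did not share this direction. Among 81 tested, none was higher and 4 (4.94%) were lower (9 when blocked on the replicate number), with a median of -0.16. That share of lower genes was below the 7.35% of all genes. *Rps27* (log2 fold change -0.48, SE 0.16, adjusted p = 0.032) and *Rps15a* (log2 fold change -0.44, SE 0.16, adjusted p = 0.049) changed most among the 4. All 4 calls were lost without Empty library 2 or 3 or mutant library 1, 3 or 4, 2 were left without Empty library 1 or 4, and 12 were made without Empty library 5. With raw library sizes, neither *Rps27* nor *Rps15a* passed.

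Nucleoporins and transport receptors, the family of the fusion's own first part, were higher in 23 of 46 members (50%) and lower in none (1 when blocked on the replicate number). Their median was 0.34, and the shares of all genes were 9.85% higher and 7.35% lower. *Nup43* (log2 fold change 0.74, SE 0.15, adjusted p = 0.0013), a scaffold subunit of the pore, and *Rcc1* (log2 fold change 0.75, SE 0.15, adjusted p = 0.0016), which loads the transport GTPase *Ran*, rose most. *Xpo1*, the export receptor that binds FG motifs, rose by 0.50, and *Ran* by 0.55. Of 28 chaperones, 10 (35.7%) were higher and 1 (3.57%) lower (6 higher without mutant library 2, 2 lower when blocked on the replicate number, none lower without Empty library 2 or 4 or mutant library 1, 2 or 4). *Hsp90aa1*, the stress-inducible form of HSP90, was at 649.9, 678, 664, 322 and 239 CPM against 426, 237, 263, 144 and 170.2 CPM, with overlap (log2 fold change 1.04, SE 0.26, adjusted p = 0.0068), and *Hspd1*, the mitochondrial HSP60, also rose (log2 fold change 0.69, SE 0.17, adjusted p = 0.0059). Of 31 genes of glycolysis and the hypoxia response, 11 (35.5%) were higher and 1 (3.23%) lower, with *Slc2a3* (log2 fold change 0.79, SE 0.15, adjusted p = 0.00076), a glucose transporter, and *Slc16a1* (log2 fold change 0.78, SE 0.13, adjusted p = 0.00042), a lactate transporter, in front. That count of higher genes was 4 without Empty library 2, 5 without Empty library 4 or mutant library 2, and 7 without Empty library 3 or mutant library 1. The lower member, *Car9*, lost its call in every leave-one-out fit except those without Empty library 4 or mutant library 5, and 2 were lower when blocked on the replicate number.

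Lipid synthesis genes shared the direction. Of 25 sterol synthesis genes, 13 (52%) rose and none fell (8 rose without mutant library 2), against 9.85% and 7.35% of all genes. The median was 0.38. *Fdps*, which makes farnesyl diphosphate, was at 225, 302, 217, 159 and 174 CPM with the mutant and 144, 89.4, 114, 96.6 and 107 CPM with the vector, without overlap (log2 fold change 0.96, SE 0.18, adjusted p = 0.00085). *Lss*, the enzyme that closes the sterol rings, rose likewise (log2 fold change 0.81, SE 0.16, adjusted p = 0.0014). *Hmgcs1* (0.38), of an early step, changed less and lost its call without Empty library 2, 4 or 5 or mutant library 1, 2 or 3. Of 13 fatty acid synthesis genes, 6 (46.2%) rose (3 without Empty library 2) and none fell. *Fads2*, a desaturase, was at 73.8, 87.6, 81.5, 68.4 and 51.6 CPM against 47.4, 23.3, 32.8, 26.3 and 32.7 CPM (log2 fold change 1.16, SE 0.18, adjusted p = 0.00033). *Fasn*, the fatty acid synthase, was at 356, 303, 289, 429.7 and 326 CPM against 170.4, 129, 143, 206 and 222 CPM (log2 fold change 0.97, SE 0.28, adjusted p = 0.018), and lost its call without Empty library 2 or 3.

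Of 33 genes of the unfolded protein and amino acid response, 11 (33.3%) fell and 5 (15.2%) rose, against 7.35% and 9.85% of all genes. The summed level of the list did not fall. It was 7325 to 9076 CPM with the mutant and 6928 to 8781 CPM with the vector, and higher with the mutant in all 5 numbers. ATF4 is the factor that answers a lack of amino acids, and its gene was among the fallers. *Trib3*, a pseudokinase induced by ATF4, was at 18.4, 20.7, 14.0, 14.6 and 17.8 CPM in mutant libraries 1 to 5 and at 42.8, 87.8, 37.3, 54.1 and 26.2 CPM in Empty libraries 1 to 5. All mutant libraries were below all Empty libraries (log2 fold change -1.54, SE 0.28, adjusted p = 0.00069). *Atf5*, a related transcription factor, was at 25.6, 29.4, 27.1, 25.1 and 42.3 CPM against 61.3, 122, 88.8, 84.4 and 63.3 CPM, again without overlap (log2 fold change -1.49, SE 0.26, adjusted p = 0.00054); its exons overlap those of *Nup62* and *Il4i1* on the other strand. *Chac1* (-1.18), which degrades glutathione, *Asns* (-1.16), the asparagine synthetase, *Ddit3* (-1.14), which encodes CHOP, *Nupr1* (-0.80), *Mthfd2* (-0.79), *Pck2* (-0.75), *Sesn2* (-0.70), *Atf4* itself (-0.56) and *Phgdh* (-0.55), of serine synthesis, completed the 11. The risers were *Vldlr* (1.10), and *Calr* (0.58), which kept their calls without any 1 library, and the folding proteins *Hsp90b1*, *Pdia4* and *Pdia6* at 0.27 to 0.38. Without 1 library the lower count was 6 (mutant 3) or 7 (Empty 3 or mutant 4) at the least, and the higher count was 2 (Empty 2 or 4, mutant 1, 2 or 3) or 3 (mutant 4). *Ddit3* had an adjusted p of 0.118 without Empty library 2. *Asns* lost its call without Empty library 2 or 3 or mutant library 3 or 4, *Pck2* without Empty library 3 or mutant library 3, *Atf4* without Empty library 1, 2 or 3 or mutant library 3 or 4, and *Phgdh* without Empty library 2 or 3 or mutant library 1, 3 or 4.

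ATF4 and its partners bind the element TGATGCAA. Within the same 250 bases, 6 of 32 promoters of the list held it on either strand (18.8%), against 1.21% of the genes called lower, 0.704% of the tested genes and 0.918% of all promoters. Among the 11 fallers 2 did (18.2%), near the share of the whole list. Only these exact letters within 250 bases were searched, and whether the element has a part in the falls was not tested. The promoters of the 2 fallers with a match are shown with the element in capitals, on the gene's strand, ending at the base before the start.
*Chac1*, chr2:119350992-119351241, plus strand: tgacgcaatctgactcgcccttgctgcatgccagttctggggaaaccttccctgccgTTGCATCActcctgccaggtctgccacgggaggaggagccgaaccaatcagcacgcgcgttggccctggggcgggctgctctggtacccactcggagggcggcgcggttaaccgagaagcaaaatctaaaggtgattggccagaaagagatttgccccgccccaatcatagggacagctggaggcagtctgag
*Nupr1*, chr7:126625471-126625720, minus strand: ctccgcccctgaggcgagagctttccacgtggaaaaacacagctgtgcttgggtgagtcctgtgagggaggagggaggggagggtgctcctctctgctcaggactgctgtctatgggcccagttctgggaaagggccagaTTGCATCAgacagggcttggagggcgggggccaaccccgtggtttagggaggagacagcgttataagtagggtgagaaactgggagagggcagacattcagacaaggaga
In both the element lay on the strand opposite to the gene, with its first base 193 and 110 bases before the start. *Chac1* lost its call without mutant library 3 or 4, whereas *Nupr1* kept it without any 1 library.

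Iron genes moved in opposite directions. *Tfrc*, the transferrin receptor that brings iron into dividing cells, was at 352, 427, 361, 198 and 151 CPM with the mutant and 154, 96.7, 113, 77.1 and 90.1 CPM with the vector, with mutant library 5 just below Empty library 1 (log2 fold change 1.49, SE 0.25, adjusted p = 0.00044). *Fth1*, the heavy chain of the iron store ferritin, was at 4069, 4135, 4019.8, 5637 and 7448 CPM and 6421, 8261, 8975, 9623 and 12307 CPM (log2 fold change -0.85, SE 0.18, adjusted p = 0.0017), with overlap between mutant library 5 and Empty library 1. *Ftl1*, the light chain, fell as well (-0.69). Of 20 genes of heme synthesis and iron handling, 5 (25%) rose and 3 (15%) fell, against 9.85% and 7.35% of all genes.

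Markers of other lineages gave calls in 1 direction, to be read against the 9.85% of all genes that were higher. Of 19 genes of globins and the red cell membrane, 6 (31.6%) were higher and none lower, with a median of 1.14, of 14 erythroid transcription factors and receptors 6 (42.9%) and none, with a median of 0.63 (11 higher and 1 lower when blocked on the replicate number). *Trim58*, a ubiquitin ligase of maturing erythroblasts, was at 2.91, 3.14, 4.01, 3.52 and 2.84 CPM against 1.78, 1.47, 1.18, 1.39 and 1.13 CPM (log2 fold change 1.24, SE 0.27, adjusted p = 0.0026), and *Trim10* showed the largest difference at 4.75, 8.03, 9.79, 2.07 and 2.55 CPM against 2.97, 0.918, 1.18, 0.564 and 1.59 CPM (log2 fold change 1.90, SE 0.58, adjusted p = 0.021). *Epb42* (log2 fold change 1.47, SE 0.48, adjusted p = 0.033) and *Rhag* (log2 fold change 1.26, SE 0.40, adjusted p = 0.028), of the red cell membrane, were called. These rested on few libraries: *Trim10* lost its call without Empty library 2, 3 or 4 or mutant library 2 or 3, *Epb42* without any of Empty libraries 2 to 5 or mutant libraries 1 to 3, and *Rhag* without Empty library 3, 4 or 5 or mutant library 1, 2 or 3. The count of 6 globin and membrane genes became 13 without Empty library 1, 3 without Empty library 2, 2 without Empty library 3, 4 or 5 or mutant library 1 or 2, and 1 without mutant library 3. In sum that list took 764 to 2095 CPM with the mutant and 491 to 1015 CPM with the vector.

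Of 19 mast cell and basophil genes, 3 (15.8%) were higher and none lower, of 10 eosinophil genes 3 (30%) and none, and of 19 megakaryocyte and platelet genes 3 (15.8%) and none. The shares of the mast cell and megakaryocyte lists are near that of all genes. *Mcpt2*, a mast cell protease, was at 343, 344, 429.6, 292 and 209 CPM with the mutant and 166, 127, 163, 151 and 119.8 CPM with the vector, without overlap (log2 fold change 1.16, SE 0.29, adjusted p = 0.0058). *Mcpt1*, a close paralog whose reads may be shared with it, was called at 30.3, 21.2, 60.9, 62.9 and 23.4 CPM against 9.57, 5.67, 11.3, 12.8 and 18.4 CPM (log2 fold change 1.79, SE 0.61, adjusted p = 0.039), a call lost without Empty library 1, 2, 3 or 4 or mutant library 3 or 4. Without Empty library 2, 3 or 4 or mutant library 3 or 4, 1 mast cell gene was called. *Selp*, the platelet adhesion protein (log2 fold change 1.20, SE 0.37, adjusted p = 0.024), was not called without Empty library 1, 2 or 3 or mutant library 4, and *Rab27b* (log2 fold change 0.80, SE 0.22, adjusted p = 0.011) without mutant library 3.

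Of 23 stem and progenitor genes, 7 (30.4%) were higher (4 without mutant library 4) and 1 (4.35%) was lower, against 9.85% and 7.35% of all genes. When blocked on the replicate number, 9 were higher and 2 lower. *Myb*, the transcription factor that keeps progenitors dividing, was at 82.8, 82.7, 71.6, 64.0 and 70.7 CPM in mutant libraries 1 to 5 and at 41.0, 23.3, 34.7, 32.7 and 22.8 CPM in Empty libraries 1 to 5, with a wide gap (log2 fold change 1.27, SE 0.17, adjusted p = 5.8e-05). *Angpt1*, a growth factor made by stem cells, was at 33.3, 39.3, 49.4, 32.4 and 28.0 CPM and 27.4, 15.8, 19.1, 14.1 and 7.93 CPM (log2 fold change 1.11, SE 0.23, adjusted p = 0.0017). *Cd34* (0.59), a surface marker of progenitors, lost its call without Empty library 4 or 5 or mutant library 2 or 4, and *Hlf* (0.83), a stem cell factor, without Empty library 1, 2 or 3 or mutant library 4 or 5. *Ly6a*, which encodes Sca-1, was the lower member (-0.58).

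**Figure D3:**
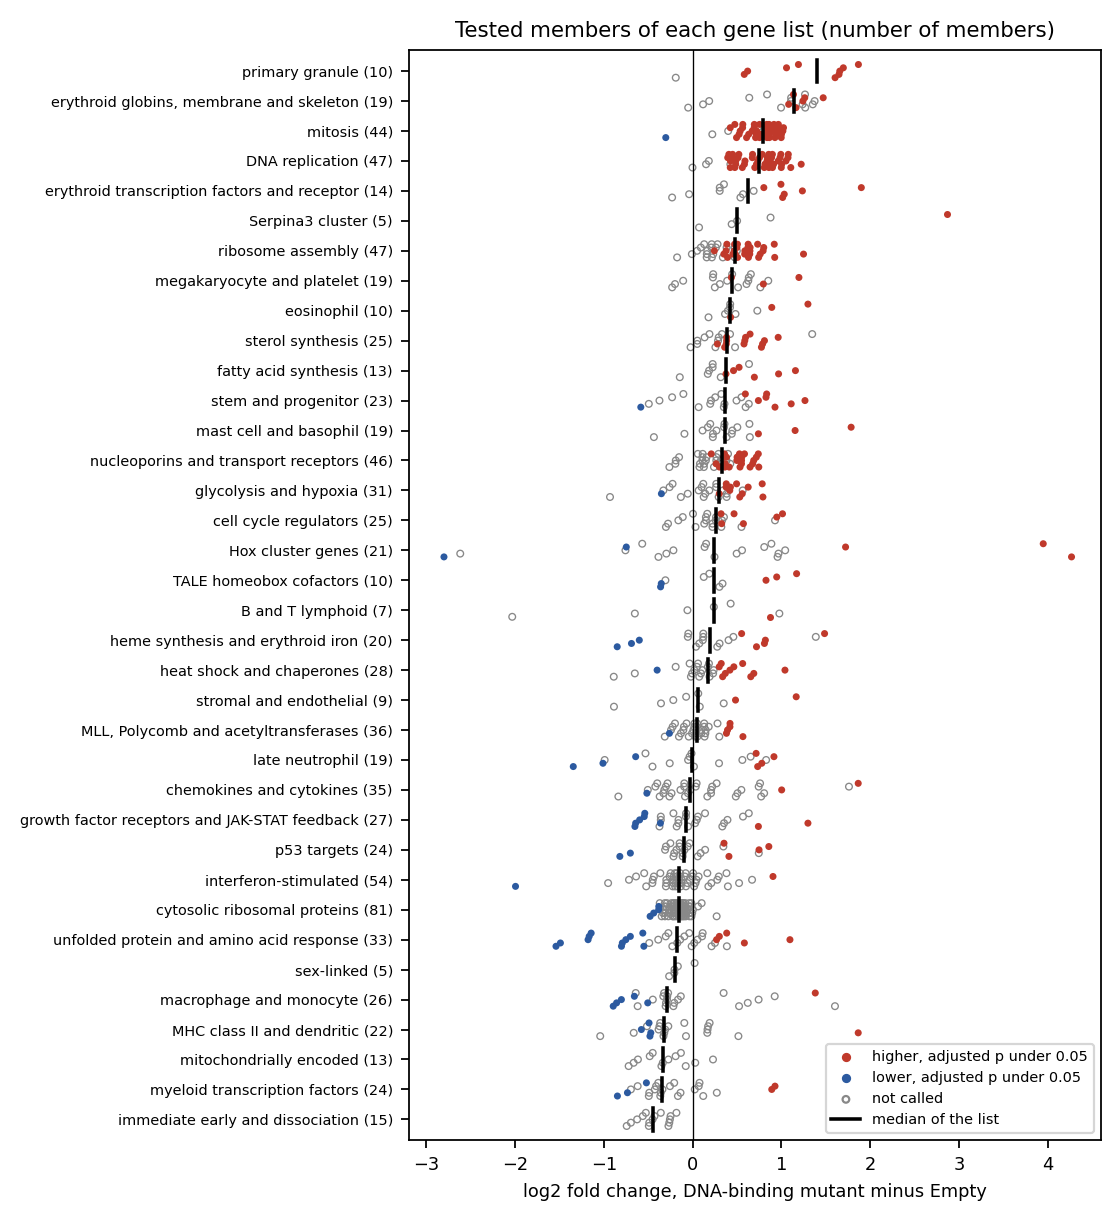
Each row is a gene list with its number of tested members, ordered by the median; each point is 1 member at its log2 fold change (mutant minus Empty), red or blue where the adjusted p was under 0.05 and open where it was not, and the black bar is the median. Primary granule (1.40), mitosis (0.80) and DNA replication (0.75) are almost wholly red, and the immediate early list at the bottom (-0.45) holds no called gene.

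Apart from the genes named above, the 12 largest rises among abundant genes with separate groups were led by *Serpina3b*, a serine protease inhibitor, at 5.85, 11.4, 22.5, 21.9 and 12.3 CPM with the mutant and 0.744, 1.95, 2.01, 3.78 and 1.74 CPM with the vector (log2 fold change 2.87, SE 0.44, adjusted p = 0.00033). It was the 1 called member of 5 tested genes of the Serpina3 cluster, a family of similar sequences among which reads may be split. *Ehd3*, of endosome recycling, was at 10.4, 27.0, 31.4, 25.2 and 16.5 CPM against 4.89, 6.06, 6.29, 6.21 and 5.39 CPM (log2 fold change 1.94, SE 0.31, adjusted p = 0.00035). In both, mutant library 1 was the lowest of its group. *Gcsam* (log2 fold change 1.89, SE 0.38, adjusted p = 0.0014), a lymphocyte signalling protein, *Slc14a1* (log2 fold change 1.78, SE 0.31, adjusted p = 0.00048), the urea transporter of red cells, *Trpc6* (log2 fold change 1.71, SE 0.30, adjusted p = 0.00048), a calcium channel, and *F2rl3* (log2 fold change 1.68, SE 0.32, adjusted p = 0.00077), the thrombin receptor PAR4 of platelets, completed the list together with the granule, mast cell and chemokine genes. In these 4, too, mutant library 1 was the lowest mutant library.

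Among the 12 largest falls chosen by the same rule, *Cox6a2* and *P2rx3* led. *Cox6a2*, the muscle form of a cytochrome oxidase subunit, was at 0.475, 0.538, 0.123, 0.262 and 2.02 CPM with the mutant and 10.9, 38.1, 19.7, 19.7 and 4.07 CPM with the vector (log2 fold change -4.76, SE 0.86, adjusted p = 0.00064), and its exons overlap those of *Itgad* on the other strand. *P2rx3*, an ATP-gated channel, was at 0.537, 1.10, 0.205, 0.309 and 2.89 CPM and 6.84, 16.9, 8.90, 13.1 and 3.73 CPM (log2 fold change -3.30, SE 0.73, adjusted p = 0.0026), and its exons overlap those of *Ssrp1* on the other strand. The counting strand is not stated. In both, mutant library 5 was the highest of its group and Empty library 5 the lowest. *Gbp8*, an interferon-induced GTPase that shares exons with *Gbp4* and *Gbp9*, was at 6.43, 5.69, 6.99, 6.37 and 10.2 CPM and 23.8, 49.9, 31.6, 25.5 and 11.2 CPM (log2 fold change -1.99, SE 0.46, adjusted p = 0.0034), while *Gbp4* was called in the other direction (log2 fold change 0.91, SE 0.26, adjusted p = 0.014) and lost that call without mutant library 3 or 4. The other falls were *Klk1b11* (log2 fold change -1.52, SE 0.35, adjusted p = 0.0033), of a kallikrein family of near copies, *Best1* (log2 fold change -1.36, SE 0.31, adjusted p = 0.0031), an anion channel, *Dpep2* (log2 fold change -1.20, SE 0.21, adjusted p = 0.00057), a leukotriene dipeptidase, *Slamf7* (log2 fold change -1.20, SE 0.29, adjusted p = 0.0044), a receptor of phagocytes, *Arrdc4* (log2 fold change -1.19, SE 0.23, adjusted p = 0.0011), an arrestin of the glucose response, and *Pla2g7* (log2 fold change -1.17, SE 0.26, adjusted p = 0.0029), which degrades platelet-activating factor.

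The other lists are given beside the shares of all genes (9.85% higher and 7.35% lower). Of 54 interferon-stimulated genes, 1 was higher and 1 lower, the Gbp genes given above (2 and 3 when blocked on the replicate number, and 0 to 2 and 1 to 2 in leave-one-out fits). Of 24 p53 targets, 4 (16.7%) were higher and 2 (8.33%) lower, with *Eda2r* (log2 fold change 0.86, SE 0.21, adjusted p = 0.005), a death receptor, and *Fas* (log2 fold change -0.82, SE 0.16, adjusted p = 0.00084) the largest in each direction. Of 36 genes of MLL, Polycomb and acetyltransferase complexes, 5 were higher and 1 lower, led by *Psip1* (log2 fold change 0.57, SE 0.20, adjusted p = 0.046) and *Dpy30* (log2 fold change 0.42, SE 0.11, adjusted p = 0.007); *Psip1* lost its call without Empty library 2, 4 or 5 or mutant library 1, 2 or 3, and 3 of the 5 were left without Empty library 2 or 4 or mutant library 1, 2 or 3. Of 35 chemokines and cytokines, 2 were higher and 1 lower, *Ccl24* (log2 fold change 1.00, SE 0.35, adjusted p = 0.043) being called besides *Ccl17* but not without Empty library 1, 2 or 3 or mutant library 1, 2 or 3. No mitochondrially encoded gene of 13 passed, and *mt-Co1* was at 6825, 5866, 6233, 5527 and 6476 CPM with the mutant and 8501, 7896, 8346, 7077 and 7203 CPM with the vector, without overlap (log2 fold change -0.34, SE 0.14, adjusted p = 0.1). None of the 15 immediate early genes passed, with a log2 fold change below 0 in all 15 and a median of -0.45, and *Atf3* had log2 fold change -0.49, SE 0.33, adjusted p = 0.33. Blocked on the replicate number, 2 mitochondrial genes, 4 immediate early genes, 3 chemokines and 2 genes of the chromatin complexes were lower.

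Markers of cells that the culture could hold beside myeloid cells formed short lists, so their shares rest on few genes. Of 7 tested lymphoid markers, 1 (14.3%) was higher, *Cd79b* (0.87), against 9.85% of all genes. A further 1 was called without Empty library 4 or mutant library 2, and 2 were higher and 1 lower when blocked on the replicate number. *Il7r*, the most abundant of them, was at 220.4, 169.6, 213, 211 and 239 CPM with the mutant and 328, 371, 381, 301 and 272 CPM with the vector, without overlap (log2 fold change -0.65, SE 0.24, adjusted p = 0.054), and 8 of 23 alternatives called it lower. Of 9 stromal and endothelial markers, 2 (22.2%) were higher. *Pecam1*, which blood cells also express, was at 229, 242, 244, 209.8 and 215 CPM and 183, 169.9, 157, 156 and 148 CPM, with no overlap (log2 fold change 0.48, SE 0.08, adjusted p = 0.00042), and *Pdgfrb*, a receptor of stromal cells, was at 2.13 CPM or less in every library (log2 fold change 1.17, SE 0.37, adjusted p = 0.028), its call lost without Empty library 2 or 3. *Xist* and the 4 Y-linked genes did not pass, and *Xist* had log2 fold change 0.02, SE 0.32, adjusted p = 0.97. The part of differing shares of cell types in the differences above was not tested.

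Libraries of the same number varied together across the conditions, but libraries of unlike number within the sets 1 to 3 and 4 to 5 did so too, and mutant libraries 2, 4 and 5 correlated best with an Empty library of another number. The difference was also read within each number, as the median over a list's members of the log2 CPM difference. For DNA replication it was 0.49, 1.27, 0.84, 0.78 and 0.43 in numbers 1 to 5, and for mitosis 0.40, 1.41, 0.86, 0.86 and 0.44. Both were above 0 in every number and largest in number 2. For primary granules it was 0.78, 2.44, 1.02, 0.56 and 1.93, above 0 throughout and largest in number 2. For macrophage genes it was -0.38, -0.19, -0.25, -0.01 and -0.28, close to 0 in number 4, and for the unfolded protein and amino acid list -0.16, -0.23, -0.28, -0.27 and 0.02, above 0 in number 5 alone. The erythroid globin and membrane list spanned 0.14 in number 1 to 2.14 in number 3. Over all genes the median was between -0.03 and 0.02 in each number.

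**Figure D4:**
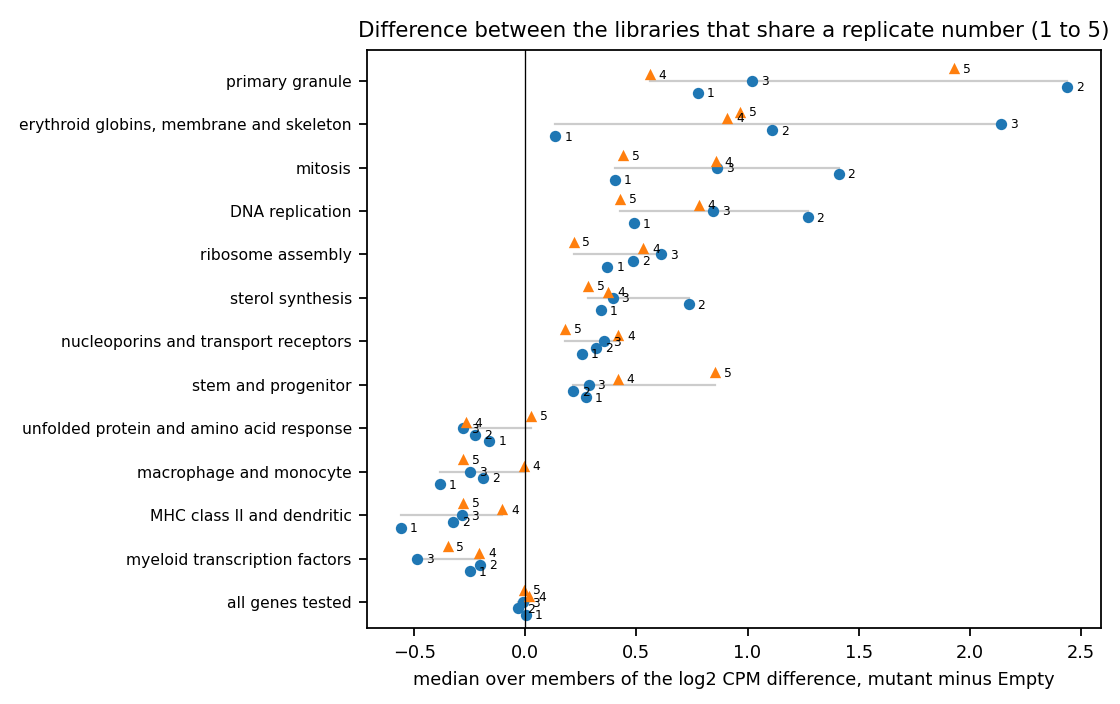
For 12 gene lists and all tested genes, the median over members of the difference in log2 CPM between the G-NHX9-DDNA and the Empty library of the same number (circles, numbers 1 to 3; triangles, numbers 4 and 5). DNA replication lies between 0.43 and 1.27 and mitosis between 0.40 and 1.41 in all 5 numbers, and all genes lie between -0.03 and 0.02.

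Against G-NHX9, the fusion that can bind DNA, 1837 genes (10.7%) were higher with the mutant and 1961 (11.4%) lower, from the same mutant libraries. All 21 Hox cluster genes tested were lower, with a median log2 fold change of -5.20. The filter ran over all 7 conditions, so genes near 0 with the mutant were tested through conditions in which they were high. *Hoxc8*, for instance, had at most 1 count per mutant library and *Hoxb7* at most 2. The count of 21 and the median therefore partly follow from the filter. *Meis1* was also lower (-0.58 on the log2 scale, SE 0.17, adjusted p = 0.014). The division lists gave almost no call in this comparison: 1 of 47 replication genes was lower and none higher, with a median of 0.10, and no mitosis gene passed, with a median of 0.10. For *Mcm5* the difference from G-NHX9 was 0.25 on the log2 scale (SE 0.18, adjusted p = 0.36), and a p that misses the threshold does not show that the levels were alike. Mast cell genes were higher in 13 of 19 with the mutant than with G-NHX9, and cytosolic ribosomal proteins lower in 73 of 81. Primary granule genes were higher in 1 and lower in 2 of 10.

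Against G-NHX9-midi-21FGAA, 133 genes (0.775%) were higher and 24 (0.14%) lower, a total of 157 that became 310 when blocked on the replicate number. The total was 78 without G-NHX9-midi-21FGAA library 4, 94 without its library 3, and 91 or 98 without mutant library 5 or 2. Primary granule genes accounted for 7 of the higher calls, of 10 tested, with a median of 1.39. *Mpo* was higher than in G-NHX9-midi-21FGAA (log2 fold change 2.08, SE 0.39, adjusted p = 0.0032), as were *Elane* (log2 fold change 2.02, SE 0.44, adjusted p = 0.013), *Prtn3* (log2 fold change 1.76, SE 0.38, adjusted p = 0.013), *Ms4a3* (log2 fold change 1.67, SE 0.33, adjusted p = 0.0063) and *Gfi1* (log2 fold change 1.21, SE 0.25, adjusted p = 0.0096). The mean level of *Mpo* was 434 ± 130.2 CPM with G-NHX9-DDNA, 103 ± 43.2 CPM with G-NHX9-midi-21FGAA and 138 ± 86.2 CPM with Empty (SD, n = 5). *Hoxa9* (log2 fold change 4.11, SE 0.37, adjusted p = 2.1e-08), *Hoxa10* (log2 fold change 3.81, SE 0.49, adjusted p = 5.1e-05) and *Nup98* (log2 fold change 0.59, SE 0.12, adjusted p = 0.0071) were higher as well. None of the replication, mitosis, sterol or macrophage lists held a called gene, and for the replication list the median was 0.09.

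**Figure D5:**
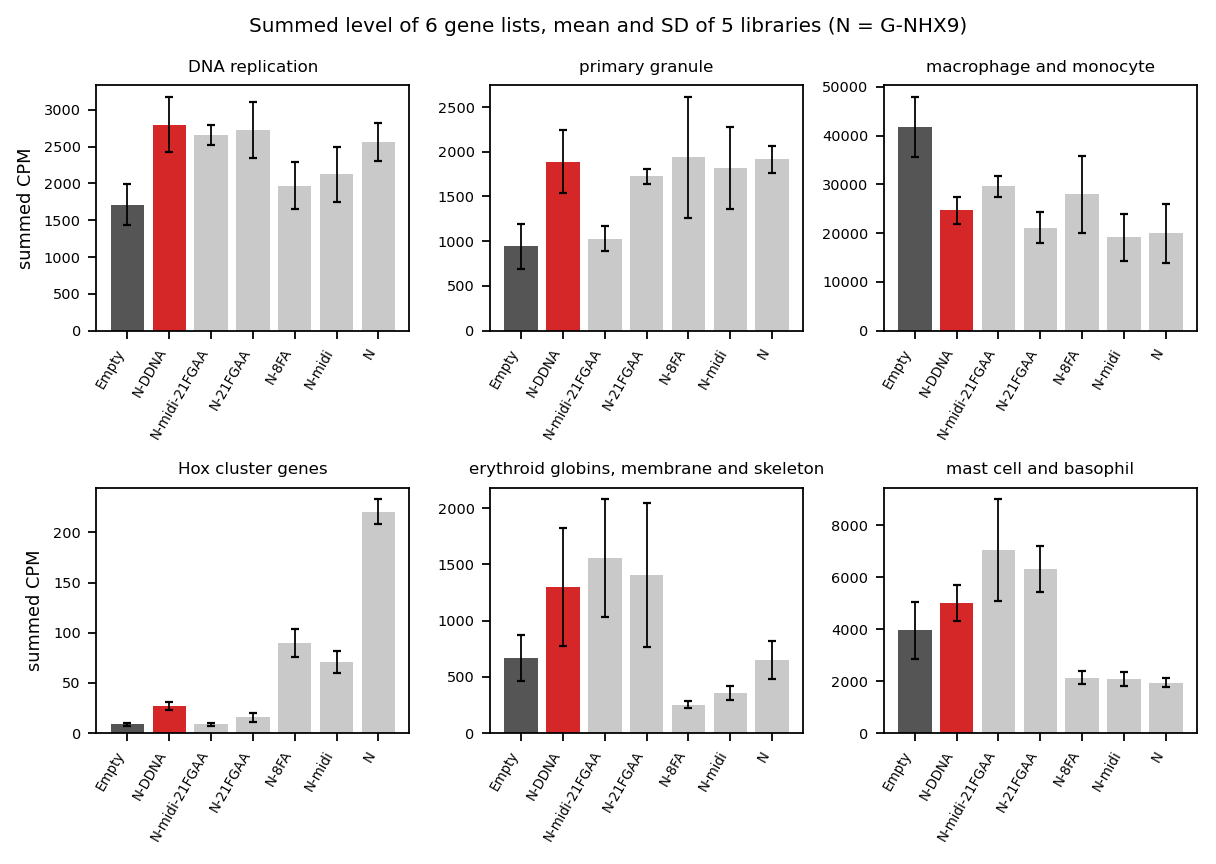
Summed CPM of 6 gene lists in the 7 conditions of the series (bars, mean; error bars, SD of 5 libraries; Empty dark, G-NHX9-DDNA red; N stands for G-NHX9). The replication sum averaged 2799 ± 376 CPM with the mutant and 1713 ± 276 CPM with Empty, and the primary granule sum averaged 1889 ± 351 CPM, 942 ± 249.6 CPM and, with G-NHX9-midi-21FGAA, 1029 ± 140.3 CPM. With the other constructs the granule sum was near that of the mutant, at means of 1917 CPM (G-NHX9), 1938 CPM (G-NHX9-8FA), 1818 CPM (G-NHX9-midi) and 1724 CPM (G-NHX9-21FGAA).

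Across the conditions, the summed macrophage list was highest with Empty, at 41741 ± 6175 CPM (SD, n = 5), against 24643 ± 2774 CPM with G-NHX9-DDNA and 19928 ± 6059.9 CPM with G-NHX9. The Hox cluster sum was 8.53 ± 1.11 CPM with Empty, 27.4 ± 3.95 CPM with the mutant, most of it *Hoxa9*, and 220.5 ± 12.4 CPM with G-NHX9. The mast cell sum was 4992 ± 685 CPM with the mutant, 3957 ± 1092 CPM with Empty and 1933 ± 180.1 CPM with G-NHX9, so that the mutant and the vector were within the spread of each other and above the intact fusion.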

How the data were processed

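The authors aligned the reads with STAR 2.7.0d to mm10 and counted them per gene with HTSeq 0.11.2, per the labels, and deposited a table of raw counts for all 35 libraries. The annotation and the strand setting are not given in the sources used here. Counts of 49671 genes were used as deposited. Genes were filtered with filterByExpr (17166 tested, 99.96% of counts), scaled by TMM and fitted over all 7 conditions with edgeR 4.0.16 quasi-likelihood tests (R 4.3.3), with Benjamini-Hochberg adjustment over all tested genes and a threshold of 0.05. Errors of log2 fold changes are standard errors. Columns were matched to samples by name. Named genes were the 12 largest rises and 12 largest falls among called genes averaging 5 CPM or more with no overlap between the groups and a symbol that is no predicted gene (41 predicted genes passed over), the 2 largest called members of each list with a mean of at least 1 CPM, *Hoxa9*, *Nup98*, *Hoxa10*, called Hox genes and cell type markers. Further list members are named after their values were seen. The members, the lists and the tests were chosen with earlier results of these data known. Libraries of the same number deviated together (correlations 0.247 to 0.458 for the 5 numbers, against a mean of 0.194 for unlike numbers within the sets 1 to 3 and 4 to 5 and -0.267 across these sets), so a count from a fit with the number as a block is given where it differs by over 1.5 times; the labels do not say what a number marks. Alternatives were other scalings, filters, DESeq2 1.42.0, fewer libraries, a sex-linked covariate and a minimum fold. Scripts were tested on simulated data. Total counts were 31559914 to 48480625 per library. Promoters are RefSeq sequences. Some items are not reported here.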

Additional observations from a re-analysis of the deposited data

Results flagged for a closer look

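Of 238 groups of 5 libraries examined, 15 held a library far from the other 4, and chance gives about 1 in 20. Library 5 of G-NHX9-DDNA was the high one for 8 genes that were lower with the mutant. It was at 68.5 CPM for *Arrdc4* against 35.9 to 44.1 CPM in the other 4 mutant libraries, at 42.3 CPM for *Atf5* against 25.1 to 29.4 CPM, and at 10.8 CPM for *Best1* against 4.10 to 5.47 CPM. For *Cox6a2* it was at 2.02 CPM against 0.123 to 0.538 CPM, for *Fas* at 21.3 CPM against 16.4 to 17.7 CPM, and for *Gbp8* at 10.2 CPM against 5.69 to 6.99 CPM. For *Klk1b11* it was at 98.4 CPM against 44.2 to 54.8 CPM and for *Slamf7* at 117 CPM against 53.7 to 70.8 CPM. In each of the 8 genes it still lay below all Empty libraries. For all but *Fas* this was fixed by the rule that chose them, which required no overlap between the groups.

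Mutant library 1 was high for *Atf3* (195 CPM against 152 to 162 CPM) and held the only *Hoxb8* reads of its group (0.0413 CPM against 0). Mutant library 4 was high for *Kit* (200 CPM against 112 to 137 CPM). Empty library 1 was high for *Cx3cr1* (1.01 CPM against 0.398 to 0.490 CPM) and for the summed p53 targets (1790 CPM against 1370 to 1480 CPM). The summed immediate early genes were high in library 1 of both conditions, at 1770 CPM against 829 to 877 CPM with the mutant and at 2520 CPM against 1020 to 1180 CPM with the vector.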

How the results depend on the processing

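No named gene changed sign with a call under any alternative run. The median of the Hox list turned from 0.25 to -0.09 in libraries 1 to 3 and that of the late neutrophil list from -0.01 to 0.11 with raw library sizes, and calls against Empty were 987 higher and 1016 lower with Empty libraries of 8 weeks. Against G-NHX9, calls were more often higher than lower with RLE (1927 and 1872), the sex-linked covariate (2268 and 2225), DESeq2 (2066 and 2041) and in 7 leave-one-out fits. Of 1904 values of 83 named genes under alternatives, 1603 stayed on the same side of the threshold, 290 lost the call and 11 gained it, and *Hoxa9* and *Hoxa10* kept it in every alternative run for them, and *Ehd3* in all but the minimum fold. Of 1495 further list counts 378 moved by more than 1.5 times. With the replicate number as a block 4297 genes were called against Empty (2286 higher and 2011 lower), a count within 1.5 times of 2952, as were those with raw library sizes, RLE size factors, other filters, DESeq2, the sex-linked covariate and Empty libraries of 8 weeks. The alternatives with libraries 1 to 3, with libraries 4 and 5, and with the block on raw library sizes were chosen after seeing the data.

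Requiring an absolute log2 fold change over 1 left 6 genes against Empty, 523 against G-NHX9 and 3 against G-NHX9-midi-21FGAA, and 0 primary granule, ribosome assembly, replication or mitosis genes higher, 0 macrophage genes lower, and 0 genes of the unfolded protein and amino acid list either way. Libraries 4 and 5 alone gave 13 genes and 0 for each of these list counts, with fewer samples. The block with raw library sizes gave 4894 genes and 9 higher genes of the unfolded protein and amino acid list. Against G-NHX9-midi-21FGAA, 157 became 310 with the replicate block, 70 with only the conditions compared, 244 with the sex-linked covariate and 306 with DESeq2. Macrophage genes lower were 8 with the replicate block and 10 in libraries 1 to 3. Ribosome assembly genes higher were 9 with Empty libraries of 8 weeks only. Of the unfolded protein and amino acid list, 2 were higher with no filter, with only the conditions compared and with Empty libraries of 8 weeks only. The cause of these changes in the counts was not tested.

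Leaving out 1 library gave 1918 to 3314 genes against Empty, 3196 to 3986 against G-NHX9 and 78 to 198 against G-NHX9-midi-21FGAA. It gave 8 to 9 primary granule, 20 to 34 ribosome assembly, 40 to 43 replication and 27 to 42 mitosis genes higher, 5 to 6 macrophage genes lower, and 2 to 6 higher and 6 to 12 lower genes of the unfolded protein and amino acid list. Of 315 called list members and named genes 201 kept the call throughout. Depth limits genes with few reads such as *Hoxb8* and *Hoxb9*.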

Other observations

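Some genes chosen after their values were seen differed between G-NHX9-DDNA and the references in unlike ways. *Plac8*, a lysosomal protein of myeloid precursors, averaged 165 ± 33.7 CPM with the mutant and 58.3 ± 16.5 CPM with Empty (SD, n = 5 each), without overlap, and its log2 fold change was 1.50 against Empty (SE 0.18, adjusted p = 1.33e-05 by edgeR) and 1.03 against G-NHX9-midi-21FGAA (SE 0.18, adjusted p = 0.0024). Against G-NHX9 it was -0.37 (SE 0.18, adjusted p = 0.151 by edgeR).

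*Cd34* was higher with the mutant than with Empty (log2 fold change 0.59) and lower than with G-NHX9-midi-21FGAA (log2 fold change -1.27, SE 0.18, adjusted p = 0.000274) and G-NHX9 (log2 fold change -1.98, SE 0.19). *Fcer1a*, the receptor chain by which mast cells and basophils bind IgE, averaged 150.4 ± 27.9 CPM with the mutant and 133 ± 50.1 CPM with Empty, with overlap (adjusted p = 0.702 by edgeR, SD, n = 5 each). It was higher than with G-NHX9 (log2 fold change 2.84, SE 0.27) and lower than with G-NHX9-midi-21FGAA (log2 fold change -1.06, SE 0.26, adjusted p = 0.031).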
